A study of Mus musculus with 4 samples.

Results

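The cytoplasmic ribosomal proteins were followed at the mRNA level in mouse oocytes. The genes were chosen by name alone: every row of the expression table called Rpl or Rps with a number, together with Rplp0, Rplp1, Rplp2 and Rpsa, was taken, while ribosomal S6 kinases and pseudogenes named with -ps were not. This gave 85 of 26631 rows, 50 named for the large (60S) subunit and 35 for the small (40S) subunit. By annotation 81 of them are protein coding and 4 (Rps4l, Rpl6l, Rps3a2 and Rps3a3) are pseudogenes that carry a protein-like name.

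Every cytoplasmic ribosome holds a single copy of most of these proteins, so their mRNAs are usually present in similar amounts and are controlled together. Most of the mRNAs begin with a pyrimidine run at the cap, the 5′ terminal oligopyrimidine (TOP) tract, through which LARP1 and the mTOR pathway set how many of them are translated. The growing oocyte stores ribosomes and these mRNAs for the embryo, and during meiotic maturation transcription is silent, so mRNA levels then follow from storage and decay.

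The oocytes were denuded, that is, freed of the surrounding cumulus cells, and were treated with HDACi 4b, which blocks the histone deacetylases HDAC1 and HDAC3, or with its solvent DMSO (control). All animals were C57BL/6, wild type and 24 days old after birth, and no group carried an allele or a transgene. RNA was sequenced in 2 libraries per group, and the comparison asks whether the inhibitor acts on the oocyte itself in the absence of its cumulus cells. The labels do not tell whether the libraries came from separate animals or cultures, so each p-value measures only the spread between these libraries, which may be technical. Their extraction note speaks of whole ovaries, whereas the cell type is given as denuded oocytes, so cell type markers were checked.

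Totals recovered from the values were 13478189 to 14903547 reads per library, and 3 reads were worth 0.201 to 0.223 CPM (reads scaled to library size). Levels are RPKM, that is, CPM per kilobase of exon, and 9015 to 10027 genes reached 1 RPKM in a library. All 10 oocyte markers were measured (zona pellucida genes, Gdf9, Bmp15 and others) and summed to 8762 to 11283 RPKM. The 12 measured markers of granulosa and cumulus cells summed to 6.40 to 7.59 RPKM, and 6 of them, Fst, Ptx3, Tnfaip6, Hsd17b1, Inhba and Foxl2, were at 0 in at least 1 library. The 7 markers of theca and stroma summed to 0.712 to 1.40 RPKM (Col1a2, Acta2, Cyp17a1 and Col3a1 at 0 in at least 1 library), and the 4 measured markers of red blood cells and endothelium to 1.28 to 1.66 RPKM (Hba-a1, Cdh5 and Hbb-bt likewise). The 10 macrophage and immune markers were less even, at 135.6 and 92.4 RPKM in control replicates 1 and 2 and 215.8 and 73.4 RPKM in HDACi 4b replicates 1 and 2, carried mainly by C1qa, C1qb and Lyz2. In bulk RNA fewer cells of a type and less RNA per cell cannot be told apart.

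The start of the mRNA is shown first, because the TOP tract is a feature of most mRNAs of this class. RefSeq start windows (GRCm38.p6) were matched for 61 of the 85 genes. The windows below run from 10 bases before to 20 bases after the annotated start for members that the later results turn on, 5′ to 3′ on the gene's strand, with the first run of a C and at least 6 pyrimidines in capitals.
Rps6, chr4:86857348-86857377, minus strand: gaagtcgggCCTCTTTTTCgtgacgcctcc
Rpl38, chr11:114668570-114668599, plus strand: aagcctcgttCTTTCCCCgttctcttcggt
Rps27, chr3:90213629-90213658, minus strand: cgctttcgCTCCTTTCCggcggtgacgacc
Rps27l, chr9:66946076-66946105, plus strand: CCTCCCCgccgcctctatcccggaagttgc
Rpl39, chrX:37085203-37085232, minus strand: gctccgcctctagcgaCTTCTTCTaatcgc
Rpl39l, chr16:10170218-10170247, plus strand: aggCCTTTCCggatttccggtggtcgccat
Rps21, chr2:180257369-180257398, plus strand: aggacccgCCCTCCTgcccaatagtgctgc
Rpl22l1, chr3:28805498-28805527, plus strand: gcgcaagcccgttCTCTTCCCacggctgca
Rpl13a, chr7:45128726-45128755, minus strand: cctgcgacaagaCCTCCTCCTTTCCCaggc

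In Rpl38 the run begins at the annotated start and in Rps6, Rps27 and Rps21 it spans it, whereas in Rps27l and Rpl39l it lies before it and in Rpl13a, Rpl39 and Rpl22l1 after it. These positions hold for the RefSeq starts. The start of the principal transcript in GENCODE M21 lay 180 bases away for Rpl39, 72 for Rpl22l1, 45 for Rps6 and 29 for Rpl38. For the others shown it lay at most 16 bases away. Over all matched members, 43 of 61 (70.5%) had such a run starting within 30 bases of the annotated start on the gene's strand, against 31.5% of 26964 other genes. On the opposite strand the run was present in 26.2% of members, against 36.2% of other genes. The sequence CCGGAAG, the core bound by ETS factors such as GABP, was found on either strand in 26 of 61 members (42.6%) and in 9.85% of other genes, or 21% of the others that were tested below. AAGATGG, part of the YY1 site, was found on either strand in 10 members (16.4%) and in 7.26% of other genes, both motifs being searched from 250 bases before to 50 bases after the start. A match describes these letters only, and a run that does not begin at the start is not by itself a TOP tract. The windows shown all hold a run, whereas Rplp0, Rps13, Rpl10 and Rps3 had none within 30 bases of the start. Among the tested members, the 42 with a pyrimidine run had a median level of 17.2 RPKM and the 16 without it 21.3 RPKM.

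The mRNAs were far from equal in amount. Mean levels over the 4 libraries ran from 860.3 RPKM for Rpl17 to 0.067 RPKM for Rpl13a, with a median of 16.4 and quartiles of 5.70 and 51.7 RPKM. A total of 9 members lay at or above 100 RPKM, 44 between 10 and 100, 27 between 1 and 10 and 5 below 1 RPKM. The median of all 9461 genes averaging 1 RPKM or more was 5.26 RPKM, and 64 of the 85 members were above it. The 60S members had a median of 19.4 RPKM and the 40S members 11.04 RPKM. Rpl17, Rps27l and Rpl4 together held 38.7% to 39.4% of the members' summed RPKM in each library.

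**Figure D1:**
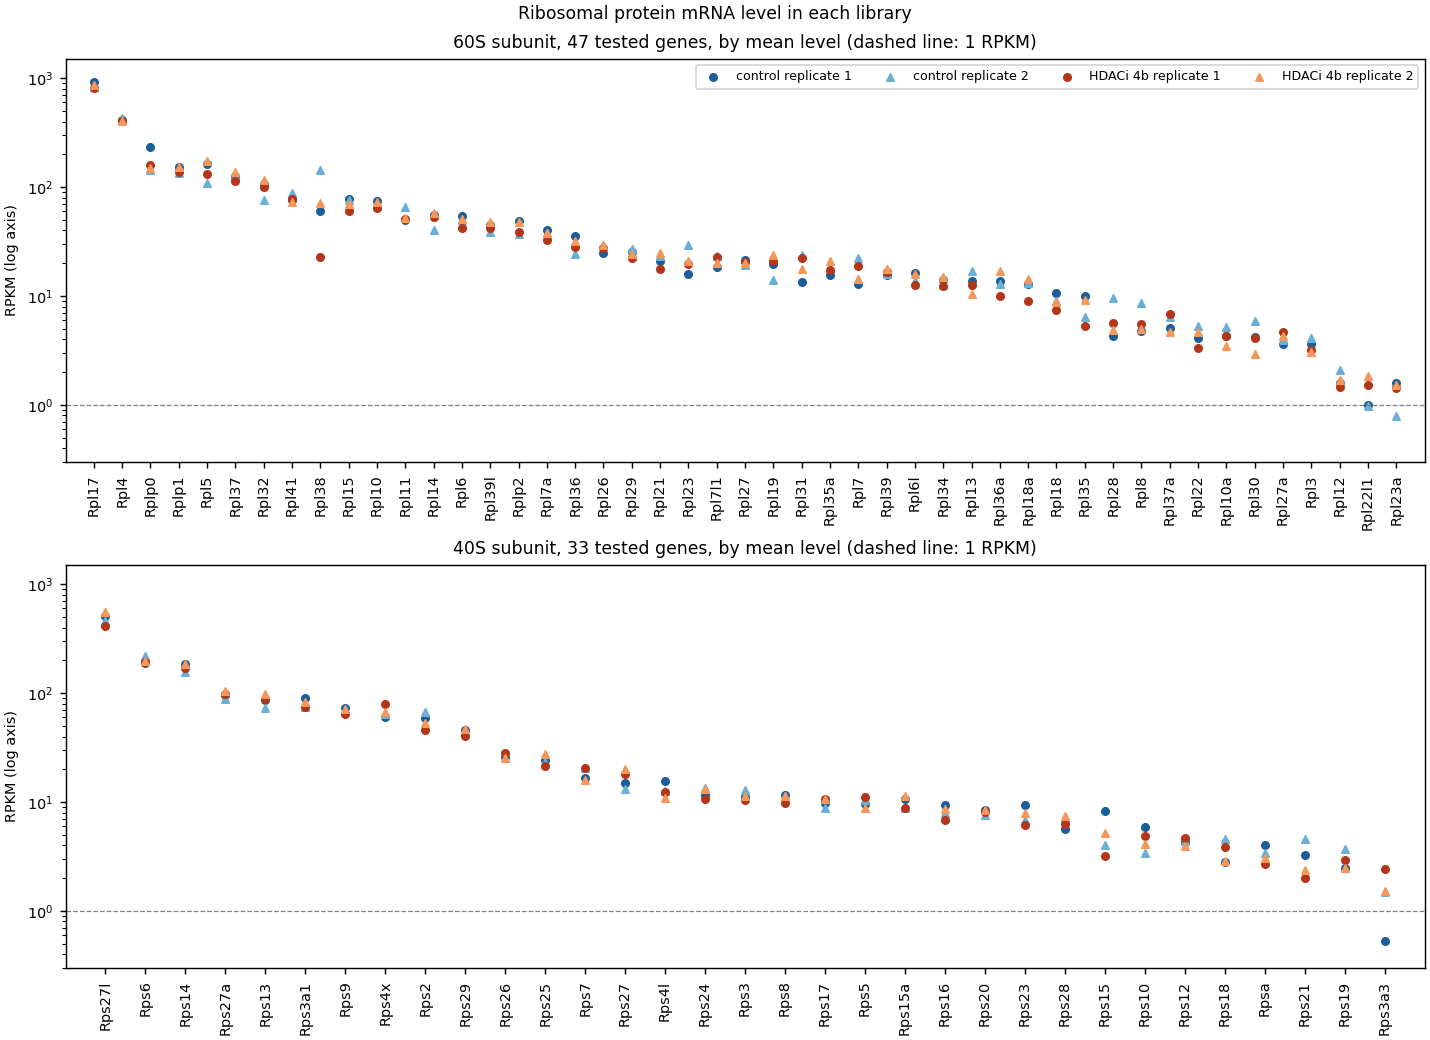
Level of the 80 tested ribosomal protein mRNAs in RPKM (log axis) by library, with 60S members above and 40S members below, ordered by mean level; the dashed line is 1 RPKM. Points of the 4 libraries mostly lie on each other while the mean levels span from 860.3 (Rpl17) to 1.33 RPKM (Rpl23a), and Rpl38 spreads most among the abundant members.

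In the large subunit, Rpl17 and Rpl4, proteins around the exit tunnel for the nascent chain, were the most abundant. Rpl17 was at 919 and 826 RPKM in control replicates 1 and 2 and at 822 and 874 RPKM in HDACi 4b replicates 1 and 2. Rpl4 was at 412 and 430 RPKM in control libraries versus 405 and 403 RPKM after HDACi 4b. On this deposited scale its coefficient of variation over the 4 libraries, 3.01%, was the lowest of the 80 tested members. After scaling of the libraries to each other, Rpl17 lay 0.23 and −0.26 log2 units from its mean in control libraries. In treated libraries it lay at −0.11 and 0.14. Rpl4 lay at 0.13 and −0.14 in control libraries and at −0.07 and 0.08 in treated ones.

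The stalk, which recruits the elongation factors, is built from Rplp0 and the acidic proteins Rplp1 and Rplp2. Rplp0 was at 232 and 144 RPKM in control libraries versus 161 and 150 RPKM with the inhibitor, and Rplp1 at 153 and 135 against 139 and 153 RPKM. Rplp2 was lower, at 48.5 and 36.8 against 38.7 and 48.0 RPKM, although its protein enters the stalk as the partner of Rplp1. For all 3 genes the groups overlapped, and the high value of Rplp0 came from control replicate 1. Rpl12, at the base of the stalk, was among the lowest of the subunit at 1.59 and 2.08 against 1.47 and 1.68 RPKM.

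Rpl5 and Rpl11 carry the 5S RNA into the 60S subunit and, when free, bind MDM2. Rpl5 was at 162 and 109 RPKM in control libraries versus 131 and 174 RPKM after HDACi 4b, and Rpl11 at 50.4 and 65.2 against 50.8 and 52.0 RPKM. Rpl10, which joins last and closes the catalytic site, was at 74.7 and 67.7 against 63.9 and 72.8 RPKM. These 3 genes overlapped between the groups. Genes overlapping Rpl5 raise its share of non-unique sequence, counted in stretches of 50 bases, from 48.5% to 93.8%.

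In the small subunit Rps27l led, followed by Rps6, the target of the S6 kinases, and Rps14, a platform protein. Rps6 was at 188 and 218 RPKM in control libraries versus 195 and 197 RPKM after HDACi 4b, and Rps14 at 184 and 158 against 171 and 186 RPKM. Rps27a, translated as a fusion with ubiquitin, was at 96.6 and 88.6 against 97.4 and 106 RPKM, and Rps13 at 87.4 and 72.5 against 87.7 and 97.9 RPKM. In contrast, Rps3 at the mRNA entry site had 11.1 and 12.9 against 10.4 and 11.3 RPKM. Rpsa, also known as the laminin receptor, had 4.01 and 3.37 against 2.71 and 3.09 RPKM, and Rps19, which in humans is mutated in Diamond-Blackfan anaemia, had 2.48 and 3.74 against 2.94 and 2.50 RPKM.

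The members below 1 RPKM were not tested, among them Rps3a2 (a pseudogene, mean 0.90), Rpl9 (0.650), Rpl10l (0.431) and Rpl13a (0.067 RPKM). Rpl9 was at 0.459 and 0.867 RPKM in control libraries versus 0.653 and 0.622 RPKM with the inhibitor. Rpl13a, which in human monocytes can leave the ribosome to repress translation, had 3 and 5 reads in control replicate 1 and HDACi 4b replicate 2 and 0 in the other libraries, where a count of 0 allows up to 0.223 and 0.201 CPM (counting error only). Rpl9 is a constituent of every ribosome, yet its row lay far below those of Rpl17 or Rps6. Of the 50-base stretches of Rpl9, 93.3% occurred in genes elsewhere. On the length of its principal transcript in place of the full exon length, its mean was 2.71 RPKM. Just above the limit were Rpl23a (mean 1.33), Rpl22l1 (1.33), Rps3a3 (1.498) and Rpl12 (1.71 RPKM). For Rpl23a 82.6% of the stretches occurred elsewhere, and the row of its pseudogene Rpl23a-ps3 had a mean of 27.6 RPKM. The part of shared sequence in these low levels was not tested.

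Paralogs stood in unequal relation to their parent genes. Rps27l was at 516 and 460 RPKM in control libraries versus 417 and 556 RPKM after HDACi 4b, whereas Rps27 was at 14.98 and 13.3 against 17.9 and 20.1 RPKM. Rpl39l, known in mice mainly from the testis, was at 44.7 and 38.6 against 42.5 and 48.2 RPKM, above Rpl39 with 15.5 and 15.9 against 16.6 and 17.5 RPKM in every library. The pairs differ in their coding sequences, shown here whole and spliced (GENCODE M21, GRCm38) with the differing bases in capitals. Within the coding sequence those bases separate the reads of a pair. The untranslated parts of the transcripts are not shown.
Rpl39, chrX:37082701-37085127, minus strand: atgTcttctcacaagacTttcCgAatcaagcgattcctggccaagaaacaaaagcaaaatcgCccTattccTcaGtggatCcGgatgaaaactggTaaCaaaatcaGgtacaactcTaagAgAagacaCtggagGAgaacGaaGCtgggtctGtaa
Rpl39l, chr16:10174310-10174465, plus strand: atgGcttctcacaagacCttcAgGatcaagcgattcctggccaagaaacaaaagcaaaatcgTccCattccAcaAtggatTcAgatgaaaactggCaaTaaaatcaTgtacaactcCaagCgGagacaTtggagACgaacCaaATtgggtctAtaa
Rps27, chr3:90212725-90213615, minus strand: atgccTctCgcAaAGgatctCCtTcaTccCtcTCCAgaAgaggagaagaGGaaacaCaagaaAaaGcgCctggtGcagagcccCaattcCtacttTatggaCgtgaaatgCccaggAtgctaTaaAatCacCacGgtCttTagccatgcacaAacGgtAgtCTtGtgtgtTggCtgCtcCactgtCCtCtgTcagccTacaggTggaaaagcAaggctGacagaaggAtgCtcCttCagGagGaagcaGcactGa
Rps27l, chr9:66946175-66949357, plus strand: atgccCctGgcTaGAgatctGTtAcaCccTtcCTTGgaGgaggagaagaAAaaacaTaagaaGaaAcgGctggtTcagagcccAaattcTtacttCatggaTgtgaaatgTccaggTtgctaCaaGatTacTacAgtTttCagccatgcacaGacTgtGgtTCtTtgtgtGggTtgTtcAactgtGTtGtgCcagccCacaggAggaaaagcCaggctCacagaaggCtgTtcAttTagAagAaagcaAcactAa

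Rpl39 and Rpl39l differed at 23 of 156 bases (85.3% identity, longest identical stretch 38 bases), 16 of them at the last base of a codon. Rps27 and Rps27l differed at 61 bases (76.1% identity, longest identical stretch 11 bases), 53 of them at the last base. No 50-base stretch (50-mer) of the Rpl39l transcript occurred in another annotated gene, and 22.4% of those of Rps27l did. For Rps27, 98.6% did, and 98.6% were found in Rps27rt alone, whose own row had 5.10 and 7.34 RPKM in control libraries versus 8.25 and 6.07 RPKM after HDACi 4b. The ratio of Rps27l to Rps27 was 34.5 and 34.6 in the controls and 23.3 and 27.6 with the inhibitor. The ratio did not overlap between the groups, but no test was run on it, and with 2 against 2 libraries an exact permutation test cannot go below p = 0.33. The ratios of Rpl22l1, Rpl10l and Rps4l to their parents did not overlap either, while those of Rpl39l and Rpl7l1 did. Rpl10l had only 5 to 7 reads per library. Among all genes tested, 28% had levels that did not overlap between the groups (scaled values). The share for ratios of other gene pairs was not counted, so these ratios show no effect of the inhibitor. On the length of the principal transcript in place of the full exon length of the gene, the ratio was 12.6 to 18.7 for Rps27l to Rps27 and 1.07 to 1.27 for Rpl39l to Rpl39.

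Of the other paralogs, Rpl7l1 was above its parent in every library on the deposited scale, by 1.04 to 1.44 times, and the rest were below theirs. Rpl7l1 was at 18.4 and 23.1 RPKM in control libraries versus 22.7 and 20.2 RPKM after HDACi 4b, close to Rpl7 with 12.8 and 22.1 against 19.03 and 14.2 RPKM, and on principal-transcript length it was below Rpl7 in every library (ratio 0.452 to 0.624). Rps4l, a processed pseudogene, was at 15.7 and 12.5 against 12.4 and 10.9 RPKM, below the X-linked Rps4x with 60.2 and 64.6 against 80.2 and 66.7 RPKM. Rpl10l, which in the mouse testis replaces the X-linked Rpl10, reached 0.346 and 0.435 against 0.459 and 0.486 RPKM. Rpl22l1 was at 0.995 and 0.970 against 1.52 and 1.86 RPKM, below Rpl22 with 4.08 and 5.25 against 3.30 and 4.63 RPKM, though on principal-transcript length the ratio was 0.469 to 1.17.

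**Figure D2:**
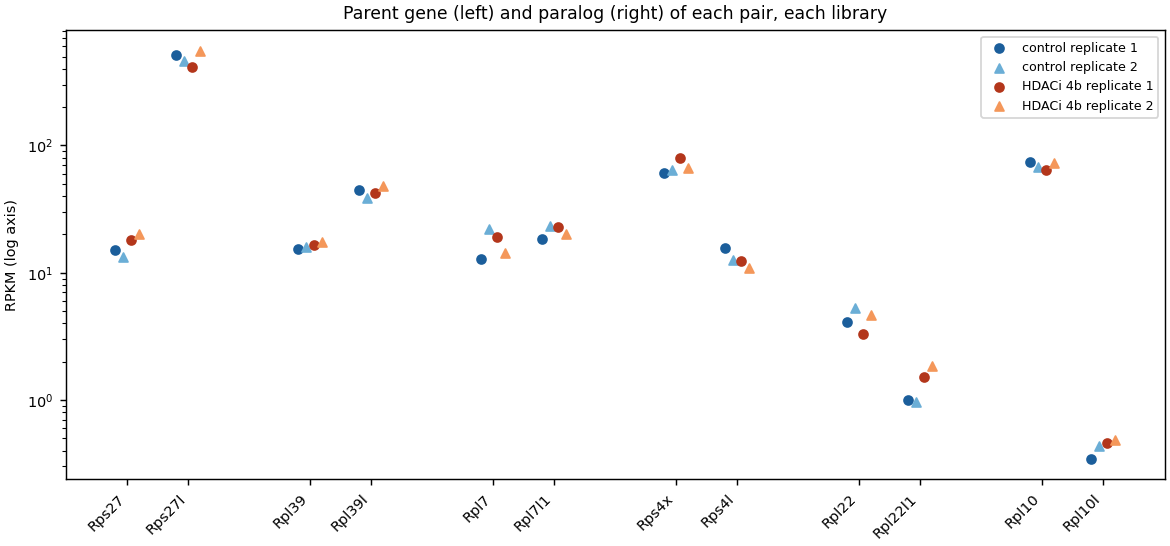
Level in RPKM (log axis) of the parent gene (left) and the paralog (right) of 6 pairs, with each library as a point. Rps27l and Rpl39l lie above their parents in all 4 libraries, Rpl7l1 lies above but near Rpl7 (1.04 to 1.44 times), and Rps4l, Rpl22l1 and Rpl10l lie below theirs.

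Ribosomal protein genes have many processed pseudogenes, and how reads common to several copies were assigned is not given by the labels or the methods, so single levels are uncertain. Of the 81 protein coding members, 40 (49.4%) shared at least 50% of their 50-mers with another annotated gene, against 3.96% of the other 7527 protein coding genes tested. Counting only genes elsewhere in the genome, 32 members did so and the median was 43.2%. Across the 81 members the level was nearly unrelated to this share (Spearman rho 0.03, a description across genes, which are not independent replicates). The median level was 10.7 RPKM in the 16 members with under 25%, 19.3 RPKM in the 33 with 25% to 50%, 26.3 RPKM in the 16 with 50% to 75% and 13.4 RPKM in the 16 with 75% or more. A total of 136 pseudogene rows named with -ps summed to 627.9 to 763.3 RPKM per library, with Rpl17-ps10 the highest at a mean of 208.4 RPKM.

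**Figure D3:**
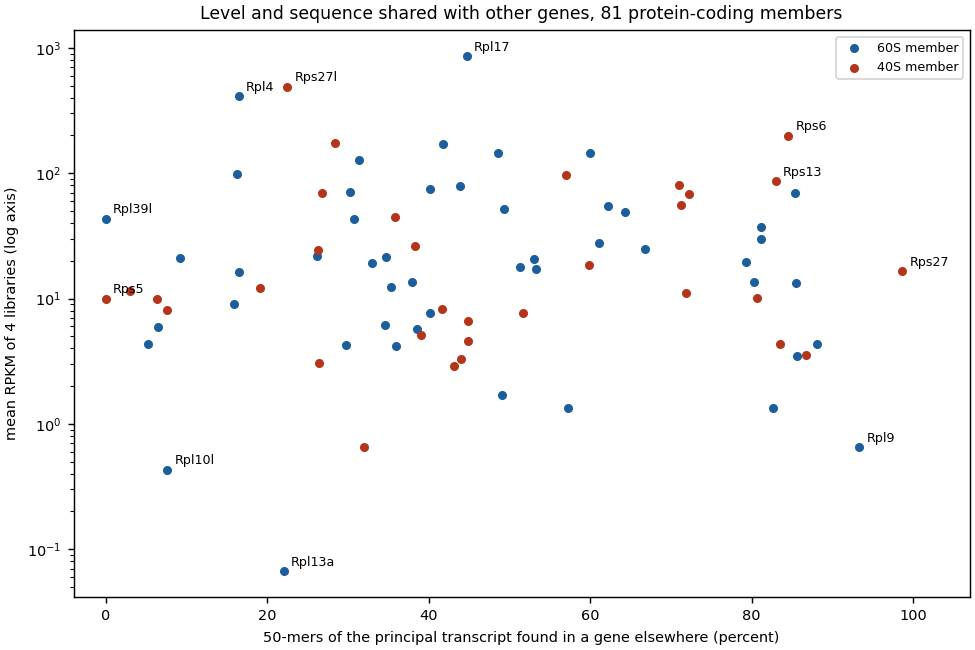
Mean level in RPKM (log axis) of the 81 protein coding members against the percentage of 50-mers of the principal transcript that occur in a gene elsewhere. The points show almost no slope (Spearman rho 0.03): Rps6 and Rps13 are high with over 80% shared, Rpl13a and Rpl10l are low with under 25% shared. Overlapping genes are left out here: 57.4% of the 50-mers of Rpl13a occur in Gm45713, which overlaps it.

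Exon length also enters each level. The length at which the values give whole reads was the full exonic length of the gene in GENCODE M21 for 74 members, and over the coding members it was 0.346 to 6.79 times the length of the principal transcript (median 1.95). On principal-transcript length the median level was 38.4 RPKM over the 81 coding members, Rps27l (797 RPKM) stood above Rpl4 (538), and Rps13 reached 395 RPKM. Rpl17 is not among the 74 members at the annotated length. Its values gave whole reads at 775 bases, while its principal transcript has 1326. Its value of 503 RPKM on the principal length thus rests on an unknown gene model, and its place in this order is uncertain. The order of levels thus depends on the length used, while comparisons of libraries within a gene do not.

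The summed level of all members was 4692 and 4440 RPKM in control replicates 1 and 2 and 4219 and 4674 RPKM in HDACi 4b replicates 1 and 2, which is 4566 ± 178 (SD, n = 2) against 4447 ± 322 (SD, n = 2). As a share of the summed RPKM of all rows this was 1.09% and 1.08% against 1.005% and 1.09%. The groups overlapped in the sum, and the lowest value was HDACi 4b replicate 1. The 60S members summed to 1.88 and 1.89 times the 40S members in the controls and to 1.83 and 1.77 times with the inhibitor.

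After the libraries were scaled to each other over all genes, the members shifted together from library to library, but not by treatment. Their median log2 deviation from each gene's mean was 0.17 in control replicate 1 and −0.19 in control replicate 2, and −0.11 and 0.16 in HDACi 4b replicates 1 and 2, while medians over all genes tested lay between −0.03 and 0.03. In control replicate 2, 63 of 80 members were below their mean, and in HDACi 4b replicate 1, 61 of 80. The median log2 SD between libraries of a group was 0.27 over members and 0.21 over all genes tested. On the deposited scale 38 and 40 of 80 members were below their mean in the control libraries and 53 and 35 after HDACi 4b. Control replicate 2 was there the highest library for 57.6% of all genes tested and for 24 of 80 members, so the shift is a position relative to other mRNAs. The medians of the oocyte markers had the same signs (0.32, −0.37, −0.08 and 0.22 in the same order of libraries), as did those of the 1860 other genes of the same high level class as the most abundant members (0.10, −0.11, −0.06 and 0.05). More genes reached 1 RPKM in control replicate 2 and HDACi 4b replicate 1 (10027 and 9604) than in the other libraries (9015 and 9033). The part of these in the shift was not tested. The medians of the 7 tested macrophage and immune markers were 0.46 and −0.61 in the control libraries and 0.97 and −0.60 after HDACi 4b. In that list Ccl3 (11.7 and 15.5 against 5.17 and 6.95 RPKM) and Cd14 (1.98 and 2.50 against 1.15 and 1.04 RPKM) were lower in both treated libraries at an unadjusted p under 0.05 by limma, and neither passed after adjustment. The other 5 tested markers of the list had positive estimates, and the median log2 fold change over the 7 was 0.25.

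**Figure D4:**
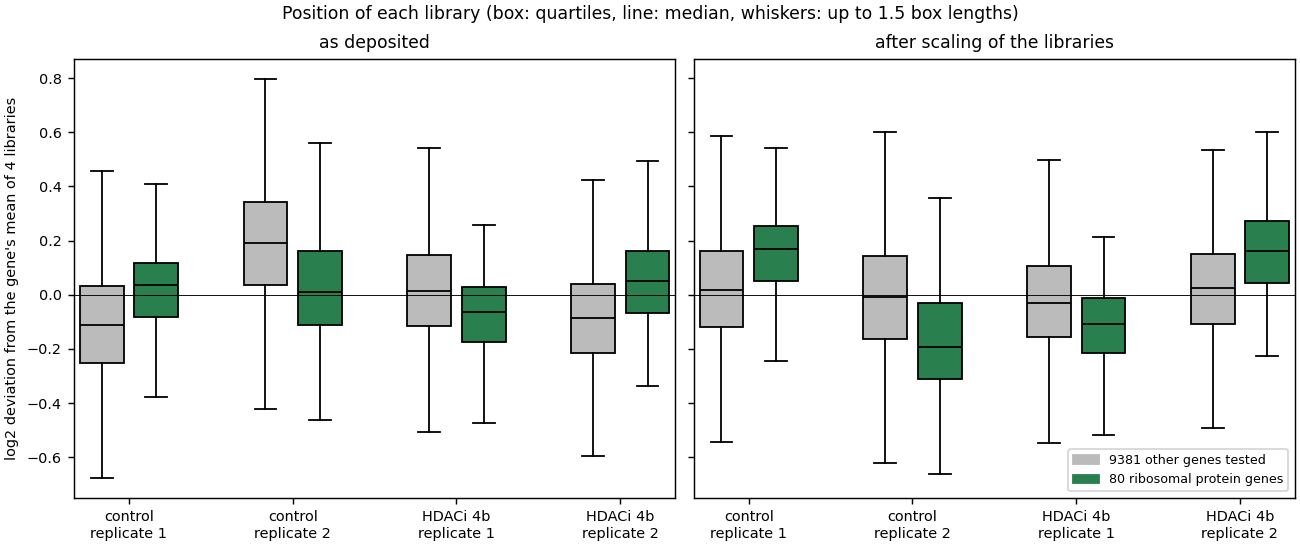
Log2 deviation of each library from the gene's mean over 4 libraries, for 80 ribosomal protein genes (green) and 9381 other genes tested (grey), as deposited (left) and after scaling (right), with boxes as quartiles, lines as medians and whiskers up to 1.5 box lengths. After scaling the green medians are 0.17, −0.19, −0.11 and 0.16 from left to right, so each group holds a high and a low library.

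With HDACi 4b no ribosomal protein mRNA passed the test. Of the 80 tested members 0 had an adjusted p under 0.05 (limma, Benjamini-Hochberg over all genes), as did 0% of the 9461 genes tested. At an unadjusted p under 0.05 there were 3 members, 2 higher and 1 lower, which is 3.75% against 2.83% of all genes tested (1.44% higher and 1.4% lower). With limma-voom on the recovered reads the counts were 0 adjusted and 2 unadjusted. The median log2 fold change of members was 0.02, with quartiles of −0.11 and 0.13, beside a median of 0.00 over all genes tested. It was 0.01 in the 47 tested 60S members and 0.04 in the 33 tested 40S members.

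The intervals state how large a change the 2 libraries per group could miss. For 69 of 80 members (86.2%) the 95% interval of the fold change lay within 2-fold in either direction, against 81.2% of all genes tested. For Rpl4 the interval was 0.673 to 1.51-fold, for Rps6 0.719 to 1.43-fold and for Rpl17 0.614 to 1.70-fold. The interval was wider than 2-fold for Rpl5, Rpl19, Rpl22l1, Rpl23a, Rpl32, Rpl35, Rpl38, Rps15, Rps21, Rps27 and Rps3a3. The 2 treated libraries lay above both controls for 6 members and below both for 6 (scaled values), in all 12 of 80, while 28% of all genes tested did not overlap (13.6% higher and 14.4% lower). This count was 22 of 80 without scaling, beside 23.4% of all genes.

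**Figure D5:**
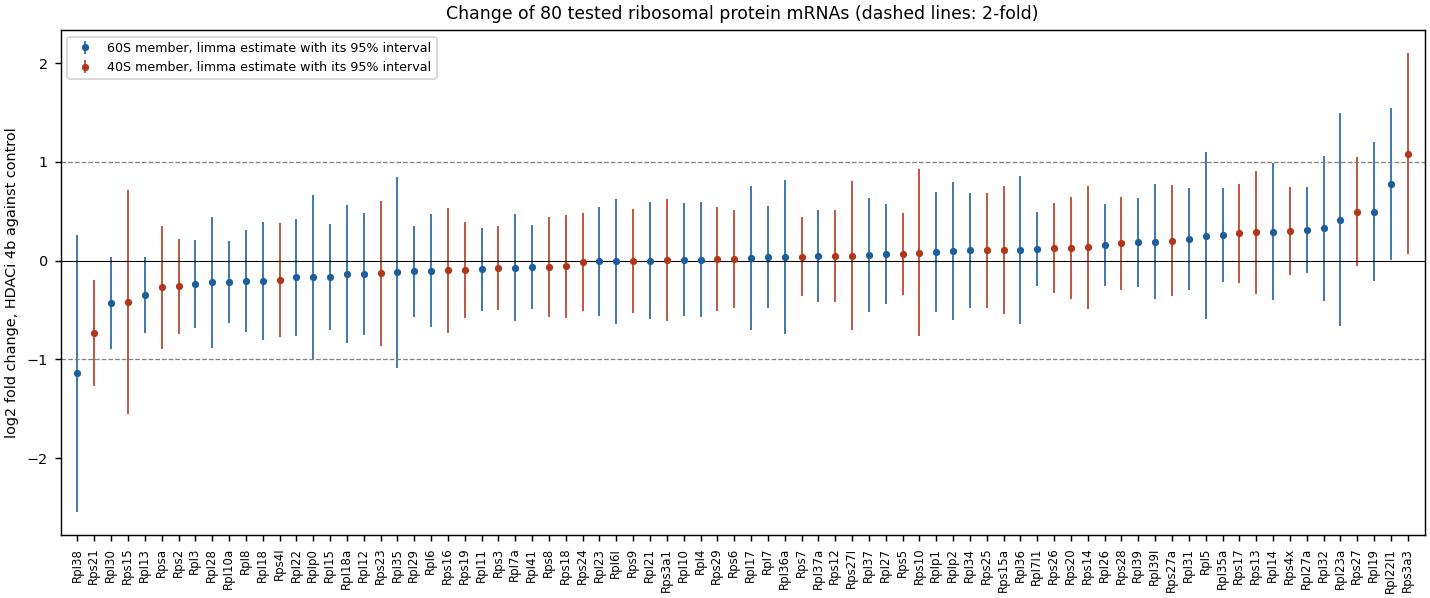
Log2 fold change of HDACi 4b against control for the 80 tested members, 60S in blue and 40S in red, with points as limma estimates, bars as 95% intervals and dashed lines at 2-fold. Nearly all estimates lie close to 0, with Rpl38 and Rps21 at the low end and Rpl22l1 and Rps3a3 at the high end.

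The 3 members with the smallest p values were of low level. Rps21, a small protein on the back of the 40S subunit, had 37 and 50 reads in control libraries versus 24 and 27 reads after HDACi 4b, or 3.23 and 4.58 against 1.99 and 2.37 RPKM, without overlap. Its log2 fold change was −0.73 (SE 0.22, limma unadjusted p = 0.015, adjusted p = 1.0). Rpl22l1, the paralog of the RNA-binding protein Rpl22, had 28 and 26 against 45 and 52 reads, also without overlap, and a log2 fold change of 0.78 (SE 0.32, limma unadjusted p = 0.0476, adjusted p = 1.0). The pseudogene Rps3a3 had 6 and 16 against 29 and 17 reads, where the treated libraries only just cleared the controls, and a log2 fold change of 1.08 (SE 0.42, limma unadjusted p = 0.0398, adjusted p = 1.0). None of these passed the test.

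Apart from Rpl38, the next in order by limma were Rpl13 (log2 fold change −0.35), Rpl30 (−0.43), Rps27 (0.50) and Rpl27a (0.31), none of them called, again without overlap between the groups after scaling. Rpl30 had 4.19 and 5.87 RPKM in control libraries versus 4.11 and 2.96 RPKM with the inhibitor, and Rpl13 had 13.8 and 17.0 against 12.5 and 10.5 RPKM. Rpl27a had 3.62 and 3.96 against 4.69 and 4.32 RPKM. Within the control group the spread was largest for Rps3a3 (2.80-fold) and Rpl38 (2.38-fold), and within the HDACi 4b group for Rpl38 (3.11-fold) and Rpl36a (9.89 and 16.98 RPKM, 1.72-fold).

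Rpl38, which in mouse embryos is needed for translation of a set of Hox mRNAs, had the largest negative estimate and, over the 4 libraries, the highest coefficient of variation of the tested members (67.9%). It was at 60.4 and 143.6 RPKM in control replicates 1 and 2 and at 22.8 and 70.8 RPKM in HDACi 4b replicates 1 and 2, with 463, 1049, 184 and 541 reads. The groups overlapped, since HDACi 4b replicate 2 lay above control replicate 1. The log2 fold change was −1.14 (SE 0.58, limma unadjusted p = 0.0951, adjusted p = 1.0), and it was −2.04 without HDACi 4b replicate 2 and −0.22 without HDACi 4b replicate 1. Of the 50-mers of Rpl38, 40.2% occurred in the pseudogene Rpl38-ps2, whose row had 11.6 and 20.9 RPKM in control libraries versus 6.62 and 6.00 RPKM after HDACi 4b (log2 fold change −1.22, SE 0.21, limma unadjusted p = 0.000876, adjusted p = 1.0). The values of this row were looked up after those of Rpl38 were seen.

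The wider translation machinery was read from lists. Of 4 ribosomal proteins outside the name rule, Fau, which is made as a fusion with a ubiquitin-like protein, was at 235 and 211 RPKM in control libraries versus 197 and 231 RPKM after HDACi 4b, and Rack1 was at 9.25 and 10.02 against 7.86 and 7.90 RPKM. Rpl36al, a paralog of Rpl36a, was at 0 and 0 against 0.0992 and 0.0525 RPKM, too low to be tested, and a count of 0 allows up to 0.212 and 0.223 CPM in these control libraries (counting error only). Of 23 other mRNAs with a TOP tract 21 were tested, of which 0 passed (12 higher, 9 lower, median log2 fold change 0.01). The elongation factor Eef1a1 was at 257 and 305 against 256.5 and 282 RPKM, and Eef2 only at 6.68 and 11.1 against 5.95 and 7.54 RPKM. Npm1, a nucleolar histone chaperone also counted in that TOP list, was at 192 and 222 against 205 and 201 RPKM. Of 33 ribosome biogenesis genes 23 were tested and 0 passed, all 23 with intervals within 2-fold.

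For the TOP regulators and the S6 kinase axis 8 of 12 genes were tested and 0 passed, with a median log2 fold change of −0.01. Larp1, the protein that binds the TOP tract, was at 0.435 and 0.619 RPKM in control libraries versus 0.354 and 0.322 RPKM after HDACi 4b, below its paralog Larp1b with 5.70 and 8.55 against 7.26 and 6.71 RPKM. Mtor was at 1.63 and 2.32 against 1.55 and 1.92 RPKM. For ribosome quality and hibernation 7 of 9 genes were tested and 0 passed (median log2 fold change −0.08), among them Serbp1, which holds idle ribosomes, at 7.15 and 9.76 against 5.98 and 6.89 RPKM.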

How the data were processed

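RNA of mouse oocytes was sequenced in 2 control and 2 HDACi 4b libraries, grouped by their labels. The authors deposited RPKM values for 26631 genes, with 0 columns unused. Bowtie 0.12.2 and the build mm8 are named in the submitters' processing notes. Counting tool and strand use were not given, so reads of overlapping genes may be mixed. Rows were matched by name to GENCODE M21 (GRCm38), 24904 in all. Whole reads (tolerance 0.01) were recovered from the values, 22632 rows at the exonic length of that annotation and 3999 at another, and single read numbers are printed only for the former. Levels are RPKM as deposited.

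Members and gene lists were chosen with earlier results of these data known. For the tests, RPKM was divided by trimmed-mean factors of the reads (0.911, 1.15, 1.03 and 0.925, with 30% of ratios and 5% of levels trimmed), and log2(RPKM + 0.1) was fitted with limma 3.58.1 in R 4.3.3 (intensity trend, two-sided, Benjamini-Hochberg at 0.05) for 9461 genes averaging 1 RPKM or more. Fold changes on that scale understate the change of low genes. Counting limits cover counting error only. Of the members 39 were named by rule: the 5 highest and 3 lowest tested of each subunit, the stalk and Rpsa, 9 with known roles, paralogs with parents, the 4 smallest p in each direction, the 2 largest spreads within each group, and those under 1 RPKM. Values of 1 of them and of 1 list gene are not reported here. Alternatives were other scalings, pseudocounts, filters, limma-voom, a robust prior, a replicate block and leaving out each library. The fit was tested on simulated data. Shared 50-mers and sequences used GENCODE M21 and RefSeq tables with Python 3.11.15.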

Additional observations from a re-analysis of the deposited data

How the results depend on the processing

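The count of 0 members at an adjusted p under 0.05 held under all 14 alternatives. The 3 members at an unadjusted p became 0 with a filter of 5 RPKM, where those 3 genes are no longer tested, and 2 to 10 when a library was left out, 10 being without control replicate 1 (6.01% of all genes then). The 12 members without overlap became 22 without scaling (23.4% of all genes) and 5 with the 5 RPKM filter. With a library left out they were 39 to 56, since 3 libraries overlap less often by construction (61.3% to 68.7% of all genes). The 69 members with intervals within 2-fold ranged from 47 to 74. The median log2 fold change ranged from −0.14 (without HDACi 4b replicate 2) to 0.21 (without control replicate 1) and was −0.04 without scaling, beside −0.07 over all genes. The sign therefore rests on single libraries.

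Without the 10 most abundant rows the members' share was 1.34%, 1.29%, 1.23% and 1.35% of the summed RPKM (both control libraries first, then both treated ones), and without members below 1 RPKM and paralogs named with l it was 0.946%, 0.942%, 0.883% and 0.934%. HDACi 4b replicate 1 was lowest each time. Of the 34 named and tested members, 23 changed sign under at least 1 alternative and 11, Rps21, Rpl38, Rps3a3, Rpl22l1 and Rps27 among them, under none, and no adjusted call changed. Those printed here were among the 4 smallest p in their direction, so their steady sign is in part built in by the choice. Replicate numbers did not pair the libraries (correlation of the replicate differences 0.05 over all genes tested and −0.27 over members). With the replicate block 0 members had an adjusted p under 0.05, 3 had an unadjusted one, 64 had intervals within 2-fold, and the median log2 fold change was 0.02. With 2 libraries per group the intervals of 11 of 80 members reached beyond 2-fold, both at low levels (Rps21 and Rpl22l1) and at high ones (Rpl5 and Rpl38).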
